A study of Homo sapiens with 4 samples.

Results

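MKN1 is an established human gastric cancer cell line. In the comparison described here, MKN1 cells had been transfected with Lipofectamine 2000, a lipid reagent, carrying either a small interfering RNA against HOXB9 (siHOXB9, labelled as a HOXB9 knockdown) or a scrambled control (siScramble, labelled as wild type). Polyadenylated RNA of each was sequenced as 1 library, so there were no replicates, and both cultures had received the lipid reagent and an siRNA. The labels give neither the time after transfection nor the siRNA sequence, and 1 sample title spells the line MNK1 while its other labels say MKN1. The study's stated purpose was to find genes that HOXB9 acts on. Of 57815 rows in the deposited table, 13122 had at least 1 FPKM (fragments per kilobase of transcript, scaled to the library's total) in either MKN1 library, and these are called measured. Changes are given as log2 of the ratio of siHOXB9 to siScramble after adding 1 FPKM to each, and a size of 1 (2-fold) was used to describe genes as higher or lower. A gene under 1 FPKM in 1 library was measured only through the other. Its place in a count of higher or lower genes was therefore set by that limit. With 1 library a side no difference could be tested, and every value below describes these libraries.

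HOX genes encode homeodomain transcription factors that lay down position along the body axis, and several are active again in carcinomas. HOXB9 is a posterior member of the HOXB cluster on chromosome 17. HOX proteins bind DNA together with partner homeodomain proteins of the PBX, MEIS and PKNOX families, which sharpen the choice of sites. In carcinoma cells HOXB9 has been studied in connection with invasion, angiogenic factors and epithelial-mesenchymal transition (EMT), the loss of epithelial junctions in favour of a migratory state. A small interfering RNA lowers the transcript it pairs with by guiding Argonaute proteins to it.

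The spacing of low FPKM values put the depth near 11490000 fragments in the siScramble library and 10650000 in the siHOXB9 library, so that 1 FPKM in a transcript of 2 kb stands for about 23.0 and 21.3 fragments. In both libraries the simple keratins of glandular epithelium were abundant. KRT8 was at 1077 FPKM with siScramble and 1229.9 with siHOXB9, and KRT18 was at 654 and 721. The epithelial cadherin CDH1 was near 0, at 0.0752 and 0.285 FPKM, while the mesenchymal filament gene VIM was at 429.5 and 461. Of 28 gastric lineage markers 7 were measured, and the mucin gene MUC6, the pepsinogen gene PGC and the proton pump gene ATP4A were listed at 0 in both libraries. A listed 0 may be a failed estimate. RPS18 and LSM2, which every cell uses, were also at 0 in both libraries. Both lie in the part of chromosome 6 where the table holds few values (described below). Whether the 0 of a gene elsewhere is a failed estimate was not tested. Markers of other cell types were few. The leukocyte list had 3 of 20 genes measured, with a summed level of 16.7 FPKM and 17.3 FPKM and PTPRC at 0 in both. The endothelial list had 2 of 11 measured, with sums of 10.1 and 9.29 and KDR at 0. No erythroid or platelet marker of 11 was measured. The list of fibroblast and smooth muscle markers, which mesenchymal-like carcinoma cells also express, had 9 of 13 measured, with sums of 66.7 and 84.0 and PDGFRA and COL1A2 at 0.

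HOXB9, the gene targeted, was at 1.14 FPKM with siScramble and 0.218 FPKM with siHOXB9. It was therefore lower in the library labelled as the knockdown, and its control level was just above the 1 FPKM limit. From the recovered depth these values stand for about 30 and 5 fragments. The remaining level was 19.1% of the control, with an exact 95% interval from the rounded counts of 5.45% to 46.8%. The interval covers counting error only. HOXB9 (ENSG00000170689.9) is encoded on the minus strand (GRCh38, chr17:48621159-48626356). Because both values were low, the log2 change was only -0.81, which is short of 2-fold on the scale with 1 FPKM added.

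The other measured genes of the HOXB cluster are set beside it, since they lie on the same stretch of chromosome 17. HOXB7, the most abundant, was at 5.53 FPKM with siScramble and 5.15 with siHOXB9. HOXB3 was at 2.11 and 1.53, and HOXB6 at 1.05 and 0.645. HOXB13, a posterior HOX gene apart from the main cluster, was the only measured HOXB gene that was higher with siHOXB9, at 0.758 and 2.14 FPKM. However, HOXB13 passed the 1 FPKM limit only through the siHOXB9 library, and HOXB6 only through the siScramble library. Their signs were set by that limit. HOXB8, the neighbour of HOXB9, was listed at 0 in both libraries.

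Among HOX genes of the other clusters 12 were measured, and none reached 2-fold. HOXC10, at 39.1 and 37.0 FPKM, and HOXC13, at 16.2 and 20.6, were the most abundant HOX transcripts of these cells, both well above HOXB9. HOXA10 was at 8.70 FPKM with siScramble and 14.02 with siHOXB9 (log2 change 0.63). HOXA11 followed at 10.2 and 12.9, and HOXC11 at 6.13 and 8.15. HOXA6 was at 1.02 and 0.376, HOXA7 at 4.15 and 4.37, HOXA9 at 3.96 and 3.34, and HOXA13 at 1.10 and 1.21. HOXC6 was at 2.39 and 2.04, HOXC9 at 4.16 and 4.05, and HOXD9, the only HOXD gene measured, at 1.69 and 1.61.

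Of 8 measured HOX cofactors 3 were above 0. MEIS2, a DNA-binding partner, was at 8.04 FPKM with siScramble and 5.63 with siHOXB9, MEIS1 at 4.08 and 3.37, and MEIS3 at 7.33 and 11.6 FPKM. PBX2 was at 0.530 and 2.30 (log2 change 1.11), a low value in a chromosome region with unreliable levels (described below). It passed the 1 FPKM limit only through the siHOXB9 library. PBX3 was at 2.19 and 1.65, PBX4 at 1.63 and 1.24, and PKNOX1 at 6.29 and 6.28. PBXIP1, whose product binds PBX proteins and keeps them from DNA, was not on the cofactor list and was at 9.30 FPKM with siScramble and 24.1 with siHOXB9 (log2 change 1.29).

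**Figure D1:**
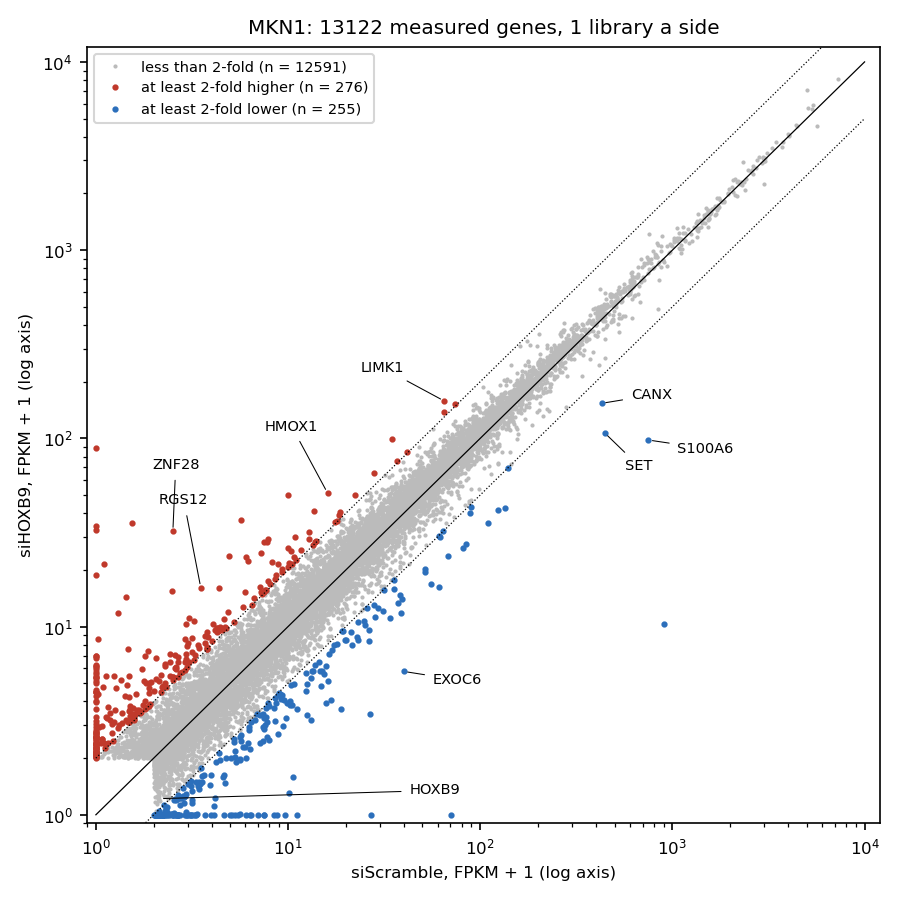
Each point is 1 of 13122 measured genes, with FPKM + 1 in the siScramble library on the x axis and in the siHOXB9 library on the y axis, both log axes, and dotted lines at 2-fold. Points spread more at low levels, and a few abundant genes such as S100A6, SET and CANX lie far below the diagonal.

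Across all measured genes, 276 were at least 2-fold higher with siHOXB9 (2.1% of those measured) and 255 were at least 2-fold lower (1.94%). The median change was 0.09, and 63.1% of genes were above 0, so a list with about this share above 0 does not stand out from the background. Most genes differed little, and 86.6% were within 1.5-fold. The balance between higher and lower genes depended on the scale. Higher genes made up 52.0% of those past 2-fold as deposited and 39.7% (205 higher, 311 lower) once changes were centred on the median gene. Median changes of lists are therefore best read against 0.09 and not against 0. The share past 2-fold was 11.4% for genes under 2 FPKM and 0.486% for genes over 100 FPKM. It was 2.67% for protein-coding genes whose exons overlap no other gene, 7.03% for long noncoding RNAs, 15.5% for pseudogenes and 12.96% for rows not joined to a single gene of the annotation (1248 unmatched and 95 with repeated symbols).

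**Figure D2:**
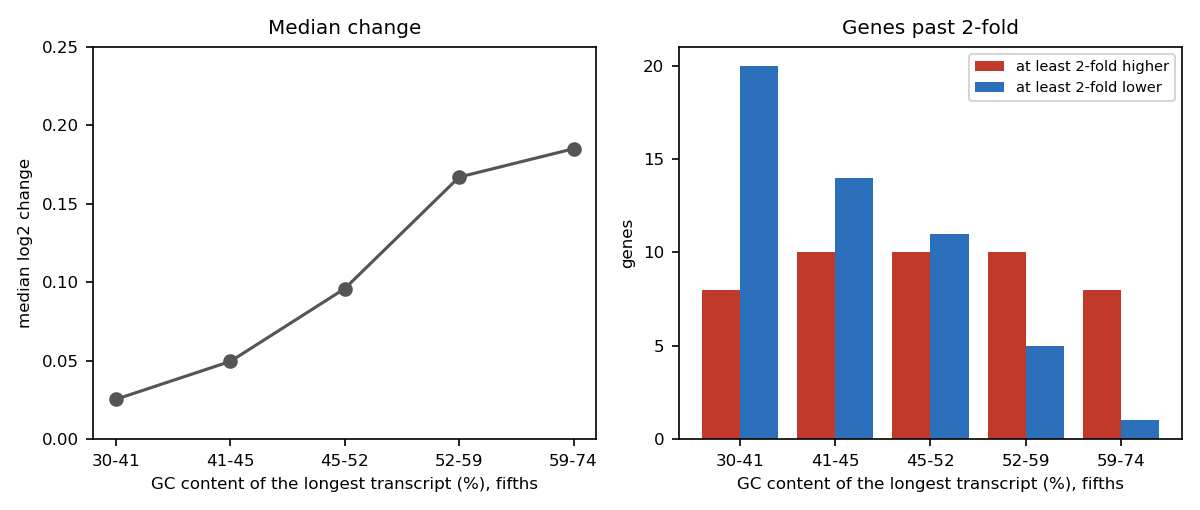
Median log2 change (left) and number of genes past 2-fold (right) for 4256 protein-coding genes with at least 5 FPKM and no shared exon, in 5 equal groups by the GC content of the longest transcript. Lower genes number 20 in the group with the lowest GC content and 1 in that with the highest, while higher genes number 8 to 10 throughout.

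Changes also followed the base composition of transcripts. Among 4256 unshared coding genes that reached 5 FPKM, the median change was 0.03 in the group with the lowest GC content of 5 equal groups and 0.19 in that with the highest. Across these genes Spearman's rho was 0.22 for GC content and 0.03 for transcript length. Genes are not independent replicates in such a correlation. Genes at least 2-fold lower numbered 20, 14, 11, 5 and 1 from the lowest to the highest group, and genes at least 2-fold higher numbered 8, 10, 10, 10 and 8. The part of GC content in the changes described below was not tested, and 20 of 63 list medians turned below 0 once each gene was set against the median of its GC group. Against their GC group, the NRF2 list had a median of 0.18, the CDK inhibitor list 0.22, the lysosome list 0.09, heme and iron handling 0.09, p53 targets 0.06, matrix genes 0.04 and cholesterol synthesis 0.03, while the G2 and M phase list was at -0.24.

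The most abundant genes give the most fragments and so the least counting error. Of 1545 genes that reached 100 FPKM, 3 were at least 2-fold higher and 8 at least 2-fold lower, and after centring on the median gene 1 was higher and 10 lower. LIMK1, a kinase that inactivates the actin-severing protein cofilin, was at 64.0 FPKM with siScramble and 157 with siHOXB9. The fibronectin receptor subunit ITGA5 was at 72.5 and 150.5 FPKM, and MIDN, a protein of nuclear protein degradation, at 63.5 and 136. Centring took ITGA5 to 0.95 and MIDN to 0.99 on the log2 scale, just under 2-fold. On the lower side SET, a histone chaperone and inhibitor of the phosphatase PP2A, was at 443 and 106 FPKM. CANX (calnexin), a lectin chaperone of the endoplasmic reticulum, was at 427 and 152 FPKM, and DEK, a chromatin protein that handles histone H3.3, at 139 and 68.6. S100A6, a calcium-binding protein, was at 748 and 97.0 FPKM. The row EFTUD1, a GTPase of ribosome assembly now named EFL1, was at 898 FPKM with siScramble and 9.31 with siHOXB9. That row had no match in the annotation and its level could not be checked. ITGA5, CANX and S100A6 share exon sequence with other genes, a limit described below. Of 628 unshared coding genes with a mean level over 100 FPKM, 1 was at least 2-fold higher and 2 at least 2-fold lower. MIDN, DEK and EFTUD1 were picked out after their values were seen.

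The genes highest with siHOXB9 relative to siScramble came from the same 4256 unshared coding genes, of which 46 were at least 2-fold higher and 51 at least 2-fold lower. RGS12, which shuts off signalling by G protein alpha subunits, was at 2.51 FPKM with siScramble and 15.1 with siHOXB9 (log2 change 2.19). NAV3, a microtubule-associated guidance protein, was at 0.795 and 6.01 FPKM (1.97). PDSS2, which builds the side chain of coenzyme Q, was at 5.06 and 22.4 (1.95). The membrane receptor gene LMBR1L was at 6.19 and 23.6 FPKM, EEPD1, a nuclease of stalled replication forks, at 2.24 and 9.74, and the translation factor gene EIF5A2 at 1.06 and 5.82. These 6 genes ranged from 1.72 to 2.19 on the log2 scale, and all had control levels under 7 FPKM.

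HMOX1 (heme oxygenase 1) was at 15.1 FPKM with siScramble and 50.2 with siHOXB9 (log2 change 1.67). SLC38A7, a glutamine transporter of the lysosome, was at 9.93 and 28.7 FPKM (1.44). IL6R, the receptor subunit that binds interleukin 6, was at 7.24 and 21.1 FPKM (1.42). The chromatin genes ARID3B, at 1.59 and 6.03 FPKM, and YAF2, a partner of Polycomb complex 1, at 11.9 and 30.9, were also among the 20. SLC25A13 (citrin), the aspartate-glutamate carrier of mitochondria, was at 26.9 and 64.7 FPKM. The remaining members of this set were KIAA1211, PNRC2, GPR157, PBXIP1, NETO1, LIMK1, HERC6 and ARHGAP12, with log2 changes of 1.20 to 1.47. Nearly all of the 20 had control levels well below the level of the abundant genes above, and LIMK1 had the highest.

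**Figure D3:**
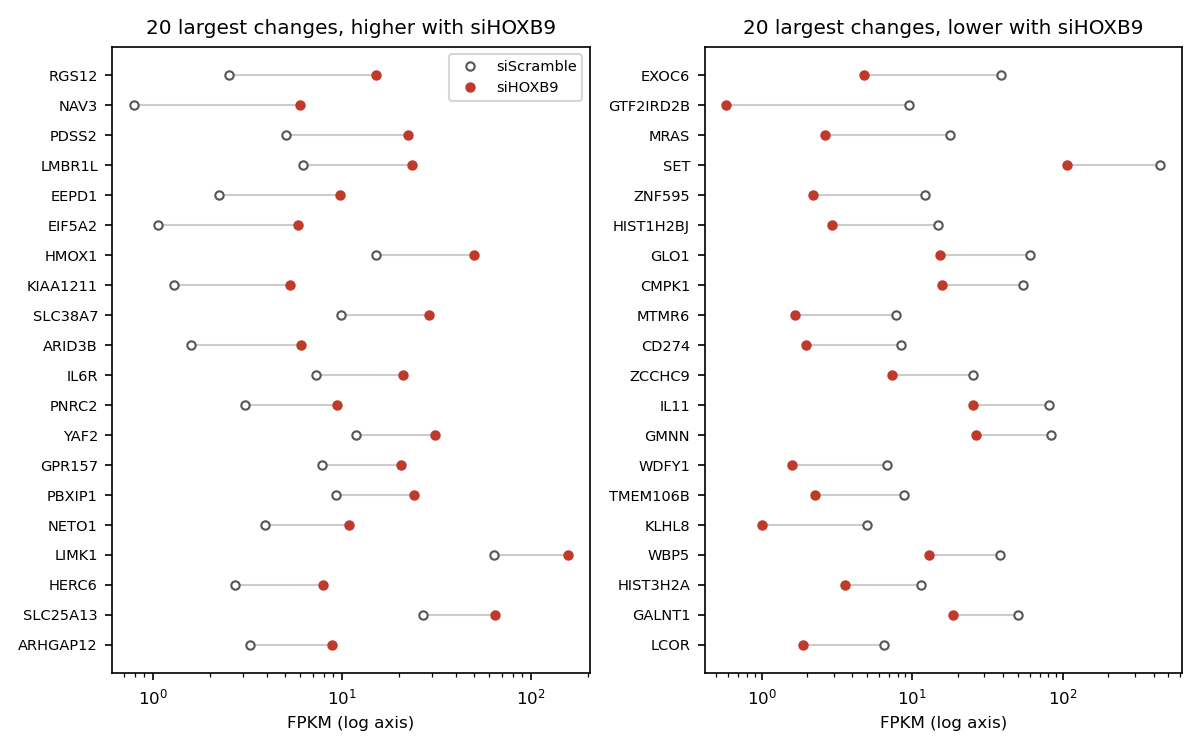
FPKM (log axis) in the siScramble library (open circles) and the siHOXB9 library (filled circles) for the 20 protein-coding genes with the highest log2 changes and the 20 with the lowest, among genes with at least 5 FPKM and no shared exon. LIMK1 and SLC25A13 are the most abundant of the higher set with siHOXB9, and SET stands apart in level in the lower set.

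The lowest log2 change among these unshared genes was that of EXOC6, a subunit of the exocyst that tethers secretory vesicles to the plasma membrane, at 38.9 FPKM with siScramble and 4.78 with siHOXB9 (log2 change -2.79). MRAS, a RAS-related GTPase, was at 17.8 and 2.64 FPKM (-2.37). SET followed at -2.05, and the sum over SET and its 19 annotated pseudogene rows was 444 and 106 FPKM, with the pseudogenes contributing 1.13 and 0.305. GLO1, which detoxifies the glycolytic by-product methylglyoxal, was at 60.3 and 15.3 FPKM (-1.91). CMPK1, the kinase of UMP and CMP, was at 54.4 and 15.7 FPKM (-1.73), and GMNN (geminin), which blocks relicensing of replication origins, at 83.5 and 26.6 (-1.61). SET was by far the most abundant of these genes, and EXOC6 was left at 12.3% of its control.

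CD274, which encodes the immune checkpoint ligand PD-L1, was at 8.45 FPKM with siScramble and 1.97 with siHOXB9 (log2 change -1.67). The cytokine gene IL11 was at 80.4 and 25.2 FPKM (-1.64). Genes of membranes and lipid signalling in this set were MTMR6, a phosphoinositide phosphatase, at 7.83 and 1.67 FPKM, and TMEM106B, a lysosomal membrane protein, at 8.78 and 2.26. GALNT1, which starts mucin-type O-glycosylation, was at 50.5 and 18.5 FPKM, and the corepressor gene LCOR at 6.46 and 1.87. The others were ZNF595, HIST1H2BJ, HIST3H2A, ZCCHC9, WDFY1, KLHL8 and WBP5, with log2 changes of -2.04 to -1.45. GTF2IRD2B was at 9.56 and 0.584 FPKM, but it has a near-identical copy, GTF2IRD2, between which reads can be split. The sum of both was at 9.62 and 1.45 FPKM (-2.12).

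Genes whose exons overlap those of another gene were kept apart, because the labels describe no step that keeps strand, and without one their reads could be assigned to either gene. With at least 5 FPKM, 4405 such protein-coding genes were measured, of which 43 were at least 2-fold higher and 37 at least 2-fold lower. HMGA2, an architectural chromatin protein of embryonic and cancer cells, was at 3.91 FPKM with siScramble and 22.8 with siHOXB9 (log2 change 2.28), and the row that shares its exon was at 0 in both libraries. ZHX3, a zinc finger and homeobox repressor, was at 4.72 and 36.0 FPKM (2.69), and together with its overlapping neighbour PLCG1 at 30.5 and 61.4 (0.99). ZNF28 was at 1.51 and 31.0 (3.67), and 6.38 and 34.3 with its neighbour ZNF468. ZNF778, CMTM1, FAM102A and GPHN were at 1.46 to 1.87 on the log2 scale.

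On the lower side of the exon-sharing genes S100A6 stood first in level, with a log2 change of -2.94. LOXL2, a lysyl oxidase that crosslinks collagen, was at 133 FPKM with siScramble and 41.5 with siHOXB9 (-1.66). SVIL (supervillin), which links actin to the membrane, was at 123 and 40.9 FPKM, ATXN10 at 109 and 34.7, and HSD17B12, an enzyme of long-chain fatty acid elongation, at 67.3 and 22.6. CCNA2 (cyclin A2) was at 37.6 and 10.8 FPKM (-1.70), but EXOSC9, whose exons overlap it, was at 34.3 and 39.3, and the sum of both was 71.9 and 50.2 (-0.51). LSM3 was at 33.1 and 10.05 FPKM, and with its neighbour XPC at 50.7 and 25.7 (-0.95). DEPDC5, a brake on mTORC1, and the Hippo kinase gene STK3 had log2 changes of -1.64 and -1.63. For CCNA2 and LSM3 the log2 change of the summed level was thus within 2-fold.

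The genes BRD2, PHF1, ATF6B and ZNRD1 of these sets lie in the major histocompatibility region of chromosome 6, where the table holds few values. Between TRIM27 and ITPR3 (chr6:28903002-33696574, GRCh38), 24 of 171 protein-coding genes were measured (14.04%), against 58.6% of all protein-coding genes, and 6 of the 24 were past 2-fold, against 2.1% higher and 1.94% lower over all measured genes. BRD2, a bromodomain reader of acetylated histones, was at 0.429 FPKM with siScramble and 13.4 with siHOXB9. PHF1, an accessory factor of Polycomb complex 2, was at 0.311 and 10.7, and ATF6B, a stress sensor of the endoplasmic reticulum, at 1.95 and 9.27. ZNRD1, a subunit of RNA polymerase I, was at 9.17 and 0.311 FPKM. Whether these levels follow the RNA of the genes was not tested.

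Of 313 long noncoding RNAs measured, 12 were at least 2-fold higher and 10 lower. TP53TG1 was at 2.04 FPKM with siScramble and 10.1 with siHOXB9 (log2 change 1.87). SNHG3, a host gene of small nucleolar RNAs, was at 14.8 and 5.16 FPKM (-1.36), and SNHG9, another such host, at 34.4 and 14.8 (-1.16). AC136297.1 was listed at 0 with siScramble and at 31.5 FPKM with siHOXB9, AC067852.1 at 0 and 5.19, and DNAJC27-AS1 at 0 and 4.62. AP005482.1 was at 2.08 FPKM and listed at 0 with siHOXB9. DNAJC27-AS1, AC067852.1, SNHG3, ZMYM4-AS1, RNF185-AS1 and CIRBP-AS1 share exon sequence with other genes, and without strand their reads cannot be told apart. Among all measured rows 66 were listed at 0 in the siScramble library and 66 in the siHOXB9 library. Of those with at least 5 FPKM in the other library, none was a protein-coding gene without shared exons.

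**Figure D4:**
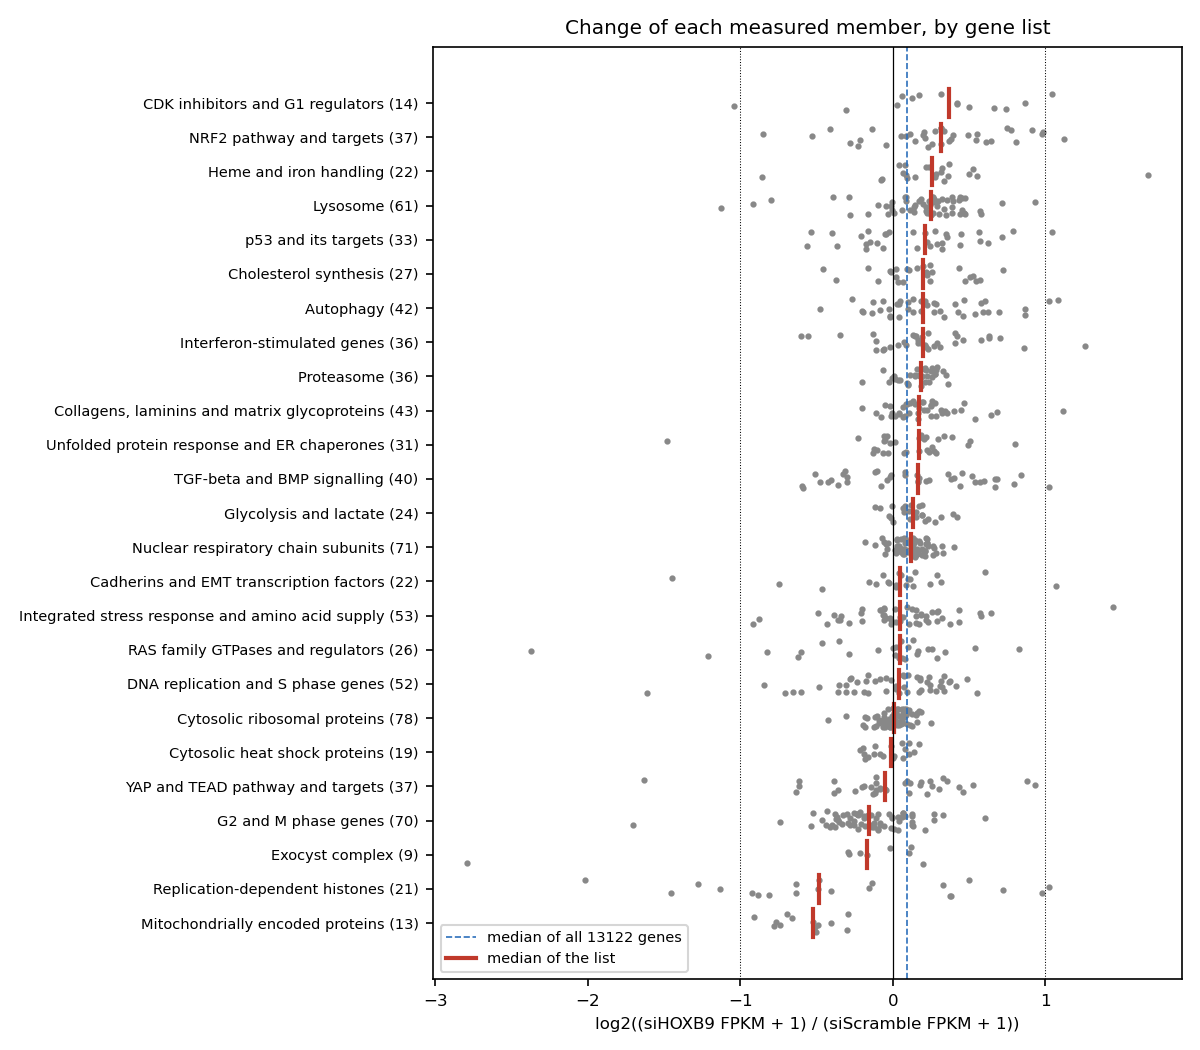
Change of each measured member of 25 gene lists (grey points, number in brackets), with the list median (red bar) and the median of all measured genes (dashed line). Mitochondrially encoded proteins, replication-dependent histones, the exocyst and G2 and M phase genes lie lowest, and CDK inhibitors, NRF2 targets, heme and iron genes and lysosome genes lie highest.

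Gene lists were described by their counts and medians. Of 63 lists with at least 5 measured members, 37 had a median above 0.09 and 13 had one below 0. The lists with the lowest medians among those with at least 10 members were the mitochondrially encoded proteins (-0.52), the replication-dependent histones (-0.48) and the G2 and M phase genes (-0.16). Those with the highest were the CDK inhibitors and G1 regulators (0.37), the NRF2 targets (0.31), heme and iron handling (0.26), and the lysosome and the stem cell and ALDH list (0.25 each). Each of these kept its sign when the libraries were rescaled to the same sum, centred or quantile normalized.

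Mitochondria hold their own genome, which encodes 13 subunits of the respiratory chain, while all other subunits come from nuclear genes. All 13 were lower with siHOXB9, and none reached 2-fold (0 of 13, against 1.94% of all genes). Among the complex I subunits MT-ND6, the only one encoded on the light strand, was at 82.3 FPKM with siScramble and 43.4 with siHOXB9 (log2 change -0.91). MT-ND4 was at 226 and 139 FPKM, and MT-ND2, the one closest to 0, at 214 and 175 (-0.29). MT-CYB of complex III was at 123 and 73.3 FPKM. Of complex IV, MT-CO1 was at 525 and 365 and MT-CO3 at 339 and 214. MT-ATP6 and MT-ATP8 of complex V were at 413 and 243 and at 836 and 486 FPKM. The spread from -0.29 to -0.91 shows a uniform direction but not a uniform size. All mitochondrial rows together made up 0.686% of summed FPKM with siScramble and 0.470% with siHOXB9.

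Nuclear subunits of the same complexes stayed near the background. Of 71 measured, 63 were above 0, with a median of 0.12 against 0.09 for all genes, and none was past 2-fold. After centring 39 of the 71 were above 0, with a median of 0.02. CYC1 of complex III was at 711 FPKM with siScramble and 856 with siHOXB9. Genes that copy and transcribe the mitochondrial genome were also not lower as a group, with a median of 0.12 over 26. TFAM, which packages and activates mitochondrial DNA, was at 66.3 and 107 FPKM (log2 change 0.69), the mitochondrial RNA polymerase POLRMT at 106 and 139, and the coactivator gene PPARGC1A at 2.13 and 4.02. Others of the list were lower, with the transcription factor TFB2M at 27.96 and 25.2 and the polymerase subunit POLG2 at 12.4 and 10.3, and 16 of the 26 were above 0.

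**Figure D5:**
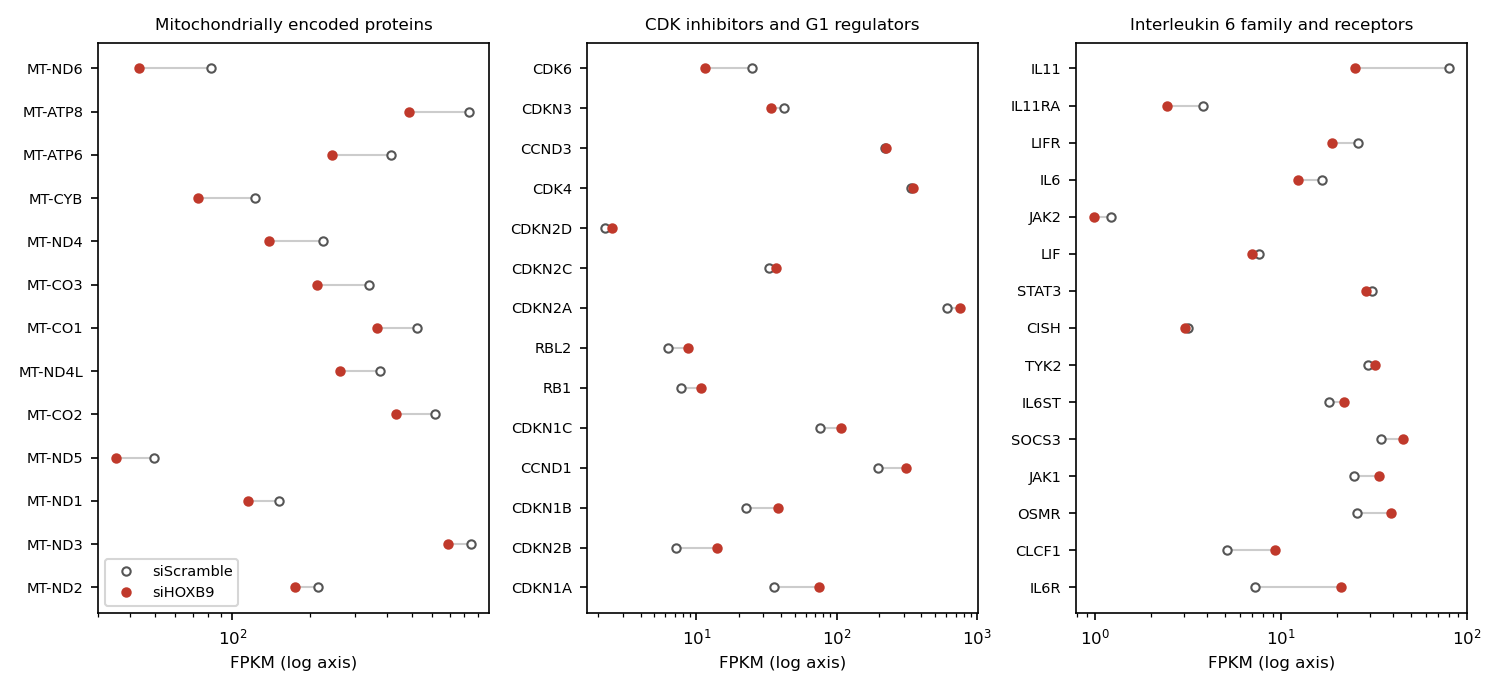
FPKM (log axis) in the siScramble (open circles) and siHOXB9 (filled circles) libraries for the measured mitochondrially encoded proteins, CDK inhibitors and G1 regulators, and interleukin 6 family genes, ordered by log2 change. All 13 mitochondrial transcripts lie lower with siHOXB9, and the interleukin 6 family has IL11 and IL6R at opposite ends.

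NRF2 (gene NFE2L2) is a transcription factor that KEAP1 holds in check and that, once released, pairs with small MAF proteins on antioxidant response elements. Of 37 measured genes of this pathway 29 were above 0, with a median of 0.31. NFE2L2 itself was at 21.2 FPKM with siScramble and 18.1 with siHOXB9, KEAP1 at 23.0 and 20.8, and the partner MAFG at 13.9 and 24.5. The steroid- and aldehyde-reducing enzyme AKR1C1 was at 17.6 and 39.5 FPKM (log2 change 1.12), the only member past 2-fold. It shares near-identical sequence with AKR1C2 and AKR1C3, and the 3 together were at 80.8 and 166 FPKM (1.03). For glutathione supply GCLC, the catalytic subunit of the rate-limiting enzyme, was at 29.8 and 52.8 FPKM, its partner GCLM at 18.5 and 27.4, and the cystine importer SLC7A11 at 9.21 and 15.0. Glutathione reductase GSR went the other way, at 79.5 and 54.8. TXNRD1, a thioredoxin reductase, was at 525 and 433 FPKM.

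Antioxidant response elements were searched as TGACNNNGC on either strand within 250 bases upstream of RefSeq gene starts (GRCh38.p14). Of 27 NRF2 list genes with a promoter there, 8 held a match (29.6%), against 16.2% of 9100 measured genes. The 8 had a median change of 0.10 and the other 19 one of 0.31, so the match did not mark the members that were higher. A pair of members that differ in sign is shown, with the match in capitals and the sequence read 5′ to 3′ toward the gene. GCLM was higher with siHOXB9 (log2 change 0.54) and TXNRD1 lower (-0.28).
GCLM (chr1:93909431-93909514, reverse strand): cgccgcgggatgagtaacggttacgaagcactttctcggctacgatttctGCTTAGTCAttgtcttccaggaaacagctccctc
TXNRD1 (chr12:104215630-104215738, forward strand): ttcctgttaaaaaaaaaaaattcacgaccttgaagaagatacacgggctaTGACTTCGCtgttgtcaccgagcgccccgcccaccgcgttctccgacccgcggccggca

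Genes of heme breakdown and iron storage were above 0. On the list of heme and iron handling, of 22 measured genes 19 were above 0, with a median of 0.26. After centring 14 of the 22 were above 0, with a median of 0.16. The 16 members without shared exons had a median of 0.12 before centring, near that of all genes. HMOX1 opens the heme ring. BLVRB, also on the heme breakdown list, was at 97.2 FPKM with siScramble and 126 with siHOXB9. BLVRA had the lowest log2 change of the 4 heme breakdown genes, 0.04, which is below the median of all genes. The ferritin subunits, which store the released iron, were among the most abundant transcripts, with FTH1 at 5037 and 7115 FPKM (log2 change 0.50) and FTL at 2327 and 2937 (0.34). FTH1 showed the largest difference in FPKM of any gene in the table, at 2078 FPKM. FECH, the last enzyme of heme synthesis, was at 38.7 and 20.9 FPKM (-0.86), the clearest exception.

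Lysosomes degrade what autophagy and endocytosis deliver, and many of their genes carry a motif bound by the factors TFEB, TFE3 and MITF. Of 61 measured lysosome genes 48 were above 0, with a median of 0.25, and 1 was past 2-fold. By role, 15 of 16 subunits of the proton pump were above 0 (median 0.26), as were 20 of 25 hydrolases (0.26). ATP6V0E1 of the pump was at 268 FPKM with siScramble and 373 with siHOXB9, and CTSD, the aspartic protease cathepsin D, at 877 and 1193. SMPD1, acid sphingomyelinase, was at 18.4 and 30.9. The hydrolases LIPA, at 18.1 and 9.17, and NAGLU, at 37.2 and 21.02, were lower. NAGLU shares exon sequence with AC067852.1, which was at 0 and 5.19 FPKM, so reads could be assigned to either. LAMTOR3, a subunit of the platform that recruits mTORC1, was at 11.3 and 4.65 FPKM (log2 change -1.13). The regulators themselves split, with TFEB at 18.7 and 14 FPKM, TFE3 at 36.9 and 47.5, and MITF at 21.4 and 21.2. Measured against genes of like GC content, 44 of the 61 were above the median of their GC group.

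The motif TCACGTGA, a palindrome at the core of the element bound by these factors, was searched in the same promoter windows. It was found in 6 of 45 lysosome genes (13.3%), against 2.16% of 9100 measured genes and 1.04% of all genes in the promoter table. All 6 were above the median of all genes, from ATP6V0D1 at 0.26 to ATP6V1G1 at 0.58, with a median of 0.36 against 0.20 for the 39 lysosome genes without it. The median GC content was 59.4% for the 6 and 52.5% for the 39, and its part in the difference was not tested. Among all measured genes the 197 with the motif had a median change of 0.18 and the others 0.10. None of 37 autophagy genes had the motif in this window. A match is a description of sequence only. The windows that hold it are shown because these genes were above 0 together, with the motif in capitals, read 5′ to 3′ toward the gene.
ATP6V1G1 (chr9:114587660-114587767, forward strand): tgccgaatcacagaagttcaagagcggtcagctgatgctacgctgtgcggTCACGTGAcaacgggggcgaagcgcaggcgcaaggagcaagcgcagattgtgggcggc
CTSA (chr20:45891259-45891334, forward strand): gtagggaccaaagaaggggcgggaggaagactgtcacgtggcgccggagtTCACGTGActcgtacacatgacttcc
GAA (chr17:80101454-80101580, forward strand): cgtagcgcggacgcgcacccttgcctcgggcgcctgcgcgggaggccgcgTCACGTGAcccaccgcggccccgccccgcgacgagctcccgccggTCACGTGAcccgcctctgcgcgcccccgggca
LAMP1 (chr13:113297160-113297238, forward strand): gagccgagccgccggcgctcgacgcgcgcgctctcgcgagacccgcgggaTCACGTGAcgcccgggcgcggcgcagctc
MCOLN1 (chr19:7522532-7522623, forward strand): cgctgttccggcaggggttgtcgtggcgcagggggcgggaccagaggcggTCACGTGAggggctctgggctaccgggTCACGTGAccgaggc
ATP6V0D1 (chr16:67481160-67481267, reverse strand): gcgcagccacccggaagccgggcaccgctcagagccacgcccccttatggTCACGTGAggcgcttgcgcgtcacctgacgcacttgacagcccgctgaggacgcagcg
ATP6V1G1 and ATP6V0D1 encode pump subunits, at 82.3 and 123 FPKM and at 52.7 and 63.3 FPKM. CTSA, a protective protease, was at 203 and 278, and GAA, which digests glycogen, at 30.7 and 40.5. The membrane glycoprotein gene LAMP1 was at 95.5 and 119.7, and MCOLN1, a calcium channel of the lysosome, at 32.8 and 40.5.

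Autophagy genes had 31 of 42 members above 0 and a median of 0.20. ULK1, the kinase that starts autophagosome formation, was at 17.5 FPKM with siScramble and 38.3 with siHOXB9 (log2 change 1.08, and 0.99 after centring). Cargo receptors had the highest median by role, 0.46 over 9. SQSTM1 (p62) was at 753 and 1219.8 FPKM, the mitochondrial receptor BNIP3L at 11.97 and 22.7, and OPTN at 18.0 and 26.7. The membrane marker gene MAP1LC3B was at 18.3 and 18.0. MAP1LC3B2, a near-identical copy of it, was at 0.702 and 2.46, and their sum at 18.98 and 20.5 FPKM. Proteasome subunits showed small changes of the same sign, with 32 of 36 above 0, a median of 0.19 and none past 2-fold. PSMD8 was the clearest of the abundant ones at 316 and 402 FPKM.

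Genes of mitosis were slightly lower as a group. Of 70 measured G2 and M phase genes 18 were above 0, with a median of -0.16, and 59 lay below the median of their GC group. TOP2A, the topoisomerase that untangles sister chromatids, was at 42.8 FPKM with siScramble and 25.2 with siHOXB9 (log2 change -0.74), and UBE2C, the ubiquitin-conjugating enzyme of the anaphase-promoting complex, at 202 and 140.1. NEK2 was at 26.0 and 17.7 and the proliferation marker MKI67 at 4.93 and 3.50. The kinases CDK1, at 84.1 and 73.6, and PLK1, at 133 and 122, differed little. CDC25B, a phosphatase that activates CDK1, was higher at 95.6 and 146 FPKM, and BIRC5 and AURKB were also slightly above 0. CCNA2 is the only member past 2-fold and is subject to the overlap with EXOSC9 given above. By role, spindle and kinesin genes had 6 of 28 above 0 and anaphase and checkpoint genes 5 of 10.

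DNA replication genes had no common direction, with 29 of 52 above 0 and a median of 0.04 that turned to -0.06 after centring. GMNN was the member past 2-fold. The cyclins of S phase entry CCNE1, at 10.8 FPKM with siScramble and 6.21 with siHOXB9, and CCNE2, at 9.55 and 5.70, were lower, and the clamp loader subunit RFC5 was at 41.9 and 22.9. GINS4 of the replicative helicase was at 37.9 and 56.0. In nucleotide synthesis CMPK1 was lower, as given above, while PPAT, the first enzyme of purine synthesis, was at 9.26 and 15.6 and RRM2 at 188 and 231. Repair genes likewise split, with the Fanconi gene FANCA at 30.6 and 52.3 FPKM and BARD1, the partner of BRCA1, at 3.85 and 1.92.

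Replication-dependent histone genes, whose main transcripts carry no poly(A) tail and are captured here only in part, had 21 of 65 members measured. Of these 7 were above 0, 4 were at least 2-fold lower and 1 higher, with a median of -0.48. The background was 1.94% lower and 2.1% higher over all genes, and 11.4% past 2-fold in either direction for genes under 2 FPKM, where many of these histones lie. HIST1H2BK, the most abundant, was at 121 FPKM with siScramble and 86.3 with siHOXB9. HIST1H2BJ was at 14.8 and 2.91 FPKM (log2 change -2.01), HIST3H2A at 11.5 and 3.56 (-1.45), and HIST1H2AC at 15.8 and 7.86. HIST1H4K was at 0.918 and 2.90, and it passed the 1 FPKM limit only through the siHOXB9 library. Most others were under 3 FPKM in both libraries, and histone genes share near-identical coding sequence, so single values are uncertain. Among chaperones SET and DEK were at least 2-fold lower, while ASF1B, which hands histones to the replication fork, was at 36.7 and 46.2.

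Inhibitors of cyclin-dependent kinases and other G1 regulators had the highest median of the lists with at least 10 members, 0.37, with 12 of 14 above 0. CDKN1A (p21) was at 35.7 FPKM with siScramble and 74.9 with siHOXB9 (log2 change 1.05, and 0.95 after centring), CDKN1B (p27) at 22.5 and 38.4, and CDKN1C (p57) at 75.4 and 107. CDKN1A shares exon sequence with another gene, a limit described above. Of the INK4 family CDKN2B was at 7.21 and 14 and CDKN2A at 607 and 755. CDK6, one of their targets, was at 24.9 and 11.6 FPKM (-1.04, and -0.99 for its sum with AC002454.1, which shares exon sequence), and cyclin D1 (CCND1) at 195 and 309.8. The retinoblastoma gene RB1 was at 7.71 and 10.7. Among p53 targets, which include CDKN1A, 19 of 33 were above 0, with a median of 0.21. BAX, a pore former of apoptosis, was at 180.3 and 312 FPKM and CCNG2 at 4.24 and 7.63, whereas FAS, a death receptor, was at 3.44 and 2.06 and RRM2B at 8.08 and 5.16.

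RAS family GTPases relay growth factor signals to the kinases RAF and PI3K. MRAS in particular forms a complex with SHOC2 and a catalytic subunit of protein phosphatase 1 that removes an inhibitory phosphate from RAF. MRAS was at 17.8 FPKM with siScramble and 2.64 with siHOXB9, SHOC2 at 8.49 and 5.16 (log2 change -0.62), and the phosphatase subunit PPP1CC at 113 and 63.5 (-0.82). The other catalytic subunits PPP1CA, at 180.2 and 198, and PPP1CB, at 109 and 115, were not lower. NRAS was at 24.8 and 20.1 FPKM and HRAS at 225 and 264, while RIT1 was at 13.1 and 24.0. Of 26 measured genes of the list 17 were above 0, with 2 at least 2-fold lower and a median of 0.05 that turned to -0.05 after centring. Feedback genes of the ERK pathway had a median of 0.11 over 20, with DUSP2 at 25.8 and 50.02 and DUSP6 at 3.74 and 2.26. Of the 9 exocyst subunits EXOC6 was the only one past 2-fold, and its paralog EXOC6B was at 4.99 and 3.88 FPKM.

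In the interleukin 6 family, ligands act through a specific receptor chain paired with the shared chain gp130, and signal through JAK kinases and STAT3. The ligand IL11 was lower (log2 change -1.64), and its receptor IL11RA was at 3.79 FPKM with siScramble and 2.42 with siHOXB9. IL6 was at 16.6 and 12.4 FPKM, whereas its receptor IL6R was higher (1.42). The ligand CLCF1 was at 5.13 and 9.25, the oncostatin M receptor OSMR at 25.7 and 39.2 and LIFR at 26.0 and 18.8. The shared chain gene IL6ST, at 18.2 and 21.9, and STAT3, at 30.7 and 28.7, differed little. The plot of FPKM for this family shows IL11 and IL6R as the extremes, with most signalling genes close together.

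Interferon-stimulated genes, which report sensing of foreign RNA among other things, had 27 of 36 measured members above 0 and a median of 0.20, with 1 past 2-fold. HERC6, a ubiquitin ligase of this response, was at 2.71 FPKM with siScramble and 7.89 with siHOXB9 (log2 change 1.26), IRF1 at 5.68 and 11.1, PARP12 at 10.4 and 17.6 and IFI6 at 19.6 and 30.8. The classical marker ISG15 was at 29.7 and 34.7 and IFIT1 at 0.912 and 1.22. The transcription factor subunit IRF9 was at 3.18 and 1.84 and the kinase EIF2AK2 (PKR) at 23.6 and 18.4. NLRC5, the activator of MHC class I genes, was at 21.9 and 34.4, and the NF-kappaB target BIRC3 at 5.76 and 10.8. CD274 thus differed in sign from most interferon-stimulated genes, among which it is often counted.

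Of adhesion genes, CDH2 (N-cadherin), the cadherin of mesenchymal cells, was at 22.1 FPKM with siScramble and 7.46 with siHOXB9 (log2 change -1.45). CDH2 and TCF4, given next, share exon sequence with other genes, a limit described above. The EMT transcription factors differed in sign. TCF4 was at 3.55 and 8.56 FPKM (1.07, and 0.98 after centring), PRRX1 at 3.76 and 1.84, FOXC2 at 28.5 and 20.4 and SNAI1 at 5.15 and 6.29, while ZEB1 was at 7.61 and 7.24. The mesenchymal markers VIM and FN1 (32.8 and 30.4 FPKM) differed little. Over the list of 22 genes 14 were above 0, with a median of 0.05 that turned to -0.05 after centring. CDH1 stayed below the 1 FPKM limit in both libraries. Of epithelial junction genes CLDN4 was at 36.4 and 54.4 and the epithelial transcription factor ELF3 at 20.02 and 32.6, and 18 of 28 were above 0 with a median of 0.11.

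Matrix genes were mostly above 0, at 36 of 43 with a median of 0.17. LAMC1, a chain of most laminins, was at 53.8 FPKM with siScramble and 84.5 with siHOXB9, TGFBI at 176 and 256 and COL4A1 of basement membranes at 21.3 and 28.5. COL8A1 was the only one past 2-fold, at 0.760 and 2.81 FPKM, and it passed the 1 FPKM limit only through the siHOXB9 library. Of 4 lysyl oxidases measured 1 was above 0, with LOXL2 at -1.66, LOX at 1.90 and 0.876 FPKM, LOXL3 at 4.01 and 3.71 and LOXL1 at 1.26 and 1.53. Of integrins 9 of 10 were above 0, and ITGA5 (log2 change 1.04) was set against ITGB1, its beta partner, at 227 and 241 FPKM. The gelatinase MMP2 was at 20.7 and 31.6 and the protease inhibitor SERPINE2 at 75.8 and 115. Among S100 proteins only S100A6 was past 2-fold, with S100A11 at 774 and 851 and S100P at 36.3 and 26.2.

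Several signalling pathways had a single member near or past 2-fold. In TGF-beta signalling TGFBR2, the ligand-binding receptor, was at 12.9 FPKM with siScramble and 27.2 with siHOXB9 (log2 change 1.03, and 0.93 after centring, which is under 2-fold), and the pathway's feedback genes PMEPA1 and SMAD7 were at 200.04 and 359 and at 20.6 and 33.3. BMP target ID2 was at 10.6 and 6.67. Receptors had a median of 0.26 over 10 and ligands 0.02 over 8. In the WNT pathway the coreceptor LRP6 was at 12.6 and 4.82 FPKM (-1.22), while the target AXIN2 was at 0.930 and 2.57 and the antagonist DKK3 at 14.8 and 26.1, with 33 of 43 genes above 0. In the Hippo pathway STK3 was lower and LATS2, a kinase one step further, higher at 11.4 and 22.7. The classical target CTGF was at 30.6 and 23.7 and the coactivator YAP1 at 82.4 and 106, and 17 of 37 genes of that list were above 0. Of ERBB ligands TGFA was at 2.30 and 4.94, and EGFR at 71.4 and 76.5.

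Angiogenic factors, which have been linked to HOXB9, had 11 of 13 measured members above 0 with a median of 0.19, and none was past 2-fold. VEGFA was at 59.6 FPKM with siScramble and 66.3 with siHOXB9, FGF2 at 16.6 and 17.0, IL8 at 3.43 and 4.23 and VEGFB at 43.7 and 34.3. Oncofetal genes related to HMGA2 included IGF2BP2 at 2.32 and 4.79 and IGF2BP3 at 13.8 and 21.7, whereas HMGA1 was at 628 and 569 and H19 at 197 and 136. ALDH genes, markers of stem-like carcinoma cells, had 10 of 11 above 0, led by ALDH1A3 at 1.28 and 4.03 FPKM (log2 change 1.14) and ALDH3A1 at 4.72 and 8.44. ALDH1A3 was not among the coding genes without shared exons. SOX9 was at 3.64 and 5.91.

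Metabolic lists differed in how far they lay from the background. Cholesterol synthesis had 21 of 27 above 0 with a median of 0.20, and 16 of 27 with a median of 0.11 after centring. Its regulator SREBF2 was at 37.8 FPKM with siScramble and 55.0 with siHOXB9, and the brake INSIG1 at 44.3 and 32.0. Glycolysis had 19 of 24 above 0 with a median of 0.13, and 15 of 24 with a median of 0.04 after centring. The glucose carrier SLC2A1 was at 261 and 351. Of hypoxia genes EPAS1 (HIF-2 alpha) was at 143 and 71.7 (log2 change -0.99), while 14 of 24 were above 0. In coenzyme Q synthesis PDSS2 was joined by COQ2 at 9.33 and 13.99, but its heterodimer partner PDSS1 was at 14.1 and 14.7 and COQ7 at 28.1 and 16.8. DGAT2, which completes triglycerides, was at 3.37 and 7.37.

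Lists for stress responses of translation and folding showed no shift common to all of them. The integrated stress response list had 30 of 53 above 0 and a median of 0.05 that turned to -0.04 after centring. Its factor ATF4 was at 156 FPKM with siScramble and 176 with siHOXB9, its target TRIB3 at 43.8 and 44.2, ASNS at 14.4 and 10.8 and the heme-sensing kinase EIF2AK1 at 86.7 and 45.5. Apart from CANX, chaperones of the endoplasmic reticulum were near or above 0, with HSPA5 (BiP) at 242 and 273 and CALR, the soluble relative of calnexin, at 829 and 1085. Cytosolic heat shock proteins lay between -0.21 and 0.17. Of 19 measured, 15 were below the median of all genes and 16 below the median of their GC group. HSPA8 was at 1671 and 1537 FPKM.

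Cytosolic ribosomal proteins had a median of 0.01 over 78 genes, below the median of all genes, and 66 of them lay below the median of their GC group. Among the most abundant were RPL7A, at 3013 FPKM with siScramble and 2242 with siHOXB9, and RPL35, at 5633 and 4549. MYC was at 154 and 182 FPKM and its antagonist MNT at 10.6 and 20.1. Among RNA polymerase III subunits POLR3E was at 71.7 and 37.0 and POLR3G at 14.1 and 24.2. Of splicing regulators MBNL1 was at 36.5 and 12.3 FPKM (log2 change -1.49) and SRSF10 at 6.05 and 2.61 (-0.97), and 19 of 39 were above 0. MBNL1 shares exon sequence with MBNL1-AS1, and the sum of both had a log2 change of -1.29. Polycomb members beyond PHF1 included RNF2, the ubiquitin ligase of complex 1, at 8.52 and 4.47, and JARID2 at 3.79 and 7.02.

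Lineage genes were mostly low. Of the gastric list FOXA1 was at 5.30 FPKM with siScramble and 10.3 with siHOXB9, MUC1 at 12.9 and 20.3, GATA4 at 3.39 and 5.06 and GATA6 at 2.81 and 3.87. The intestinal factor CDX2 was at 0.516 and 1.76 and HNF4A at 1.03 and 0.471, each over 1 FPKM in 1 library only. All 5 measured squamous markers were above 0, but only 2 of them reached 5 FPKM in either library. KRT17 was at 812 and 948, TRIM29 at 77.3 and 102, KRT16 at 1.94 and 3.87 and KRT15 at 0.807 and 1.94. KRT15 passed the 1 FPKM limit only through the siHOXB9 library, so its sign was set by that limit. The same holds for the marker not named here, since rescaling both libraries to the same sum left 4 markers measured. The count of 5 above 0 was thus set in part by the limit. The squamous regulator TP63 stayed below 1 FPKM at 0.0877 and 0.167. None of these genes reached 2-fold.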

How the data were processed

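RNA of 1 MKN1 library with siHOXB9 and 1 with siScramble was measured by RNA-seq, and the authors deposited 1 table of FPKM values for all rows. Per the labels' protocols mRNA was captured on poly-T beads and sequenced on a NovaSeq instrument, with no strand-keeping step described. GRCh38 and hg38 are named per the submitters' processing notes, while the names of the aligner, counter and annotation were not given in the sources used here. Columns of the other cell line were left out. Rows were kept with at least 1 FPKM in either library, and log2 changes were computed after adding 1 FPKM. Symbols were matched to GENCODE 29 (11287 by symbol and 492 through RefSeq synonyms, 1248 unmatched), which gave positions and shared exons. Depth was estimated from the spacing of low FPKM values, after a check on simulated data. In those fits 66.0% and 64.0% of low values lay within 0.05 of a whole fragment, so the depth is approximate. Named genes were the 20 with the highest and the 20 with the lowest log2 change among unshared protein-coding genes with at least 5 FPKM, 10 each way among those with shared exons, 5 each way among long noncoding RNAs, and examples from each gene list. The comparison, the gene lists and their members were chosen with earlier results of these data known, so list counts are not independent support. No test was made, since each group had 1 library. Promoters came from RefSeq (GRCh38.p14). Python 3.11.15, pandas 2.3.3, numpy 2.4.6, scipy 1.17.1 and matplotlib 3.10.9 were used.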

Additional observations from a re-analysis of the deposited data

How the results depend on the processing

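No paired analysis was possible because each group had 1 library, and for the same reason no replicate could be left out. Against 276 higher and 255 lower genes, a pseudocount of 0.1 FPKM gave 570 and 455, a limit of 5 FPKM gave 128 and 129, unshared protein-coding genes alone gave 78 and 69, and a limit of 1.5-fold gave 1045 and 707. Centring each gene on the median of its GC group, chosen after seeing the data, gave 135 and 215. Rescaling both libraries to the same sum gave 230 and 283, and quantile normalization 226 and 294. Of 63 list medians, 7 turned below 0 after rescaling, 13 after centring on the median gene, 13 after quantile normalization and 20 after GC centring. The limits of depth are greatest for low genes, where HOXB9 rests on about 30 and 5 fragments.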
